A study of Mus musculus with 4 samples.

Results

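The T cell receptor signalling genes described here are Cd247, Lck, Zap70, Prkcq, Rasgrp1, Cd2, Ptpn22, Sla2 and Stat4, which are 9 of the 4099 genes with complete rows in the count table. They were chosen by symbol, all 9 had a row, and their UMIs (molecules counted by their unique identifiers) were summed over the cells of each cell type name that the authors deposited. The cells came from tumours of the 4T1 mouse mammary carcinoma line grown in BALB/c mice, dissociated and sorted for CD45-positive cells that excluded propidium iodide, and then profiled on the 10x Genomics platform. The groups of the study are Mif-depleted 4T1 tumours and wild-type 4T1 tumours, with 2 samples each and 3 tumours combined in every sample. Mif encodes macrophage migration inhibitory factor, a cytokine, and the depletion is a property of the 4T1 tumours in the labels. Barcodes carry a suffix from 1 to 4, and nothing in the labels or headers ties a suffix to a sample, so Mif-depleted and wild-type tumours were not compared. Suffix 1 and suffix 2 are given apart. The labels do not say what a suffix stands for, the group of each is unknown, and there are no replicates.

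Counts were present for 16383 cells, which were 13162 cells of suffix 1 and 3221 cells of suffix 2. Suffix 1 held 29567302 UMIs with a median of 1224.5 per cell, and suffix 2 held 8578852 UMIs with a median of 1712 per cell. Among the cells with counts, 12 barcode sequences occurred in both suffix 1 and suffix 2. Levels are UMIs per 10000 counted UMIs, intervals are 95% exact intervals, and both cover counting error only. In sums over cells of a name, fewer expressing cells and less RNA per cell cannot be told apart. Shares of cells are given as well, but a share also depends on the level, so it does not settle this. Of the markers listed for T cells, 3 of 12 were measured (Icos, Cd28 and Lef1), and their summed level lay between 33.8 and 68.3 in the CD4 names of suffix 1, at 11.8 in CD8_Tex and at 16.2 in NK_cell, against 0.29 in neutrophils. The single measured natural killer marker, Xcl1, stood at 86.8 in NK_cell and at 7.65 in CD8_Tex. Neither of the 2 CD8 markers was measured, so the CD8 part of the name CD8_Tex could not be checked, and its macrophage markers are given with its results.

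A T cell recognises a peptide through its antigen receptor, which has no enzyme of its own. The kinase Lck phosphorylates the zeta chains of the receptor complex, encoded by Cd247, and the kinase Zap70 docks on them and passes the signal on. Downstream, protein kinase C theta (Prkcq) acts towards NF-kB and the exchange factor Rasgrp1 loads Ras, while the adhesion receptor Cd2 adds to the contact, and the phosphatase Ptpn22 and the adaptor Sla2 (SLAP-2) restrain the signal. Stat4 is the transcription factor that answers interleukin-12. Natural killer cells use several of the same proteins behind other receptors.

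The genes lie apart from each other on 4 chromosomes of GRCm38 in GENCODE M21, and all are protein-coding. Zap70 (chromosome 1, 36761798 to 36782818), Stat4 (chromosome 1, 51987148 to 52107189), Cd247 (chromosome 1, 165788681 to 165877277), Prkcq (chromosome 2, 11172108 to 11301222) and Ptpn22 (chromosome 3, 103859795 to 103912247) are on the forward strand. Rasgrp1 (chromosome 2, 117279993 to 117343001), Sla2 (chromosome 2, 156872457 to 156887192), Cd2 (chromosome 3, 101275899 to 101287939) and Lck (chromosome 4, 129548344 to 129573641) are on the reverse strand. Cd247 shares 12124 bases with Pou2f1 on the opposite strand, and Sla2 shares 1107 bases with Rab5if on the opposite strand. Whether counting used the strand is not given in the sources used here, so the values of Cd247 and Sla2 are uncertain to that extent. Only overlaps with protein-coding genes were searched for. Ptpn22 may also share reads with Gm43065 and Gm15472, which lie within its introns on its strand.

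The RefSeq promoter table on GRCm38.p6 held 13 start-site windows for 8 of the 9 genes. Those of Prkcq and of the outer Stat4 start held none of the motif letters named below and are not among the 6 shown. The 6 shown stand before Cd247, Zap70, Lck, Ptpn22 and Stat4, and all hold such letters. Each gives the 250 bases before a start, 5′ to 3′ on the gene's strand, and capitals mark the motif letters, which were searched on both strands and appear as their reverse complement where the match is on the other strand. These letters were TGTGGT (the core bound by RUNX factors), GGAAGT (bound by ETS factors) and CAGGTG (an E-box). No matches overlap each other in these windows. The windows of Cd247 (chr1:165788431-165788680) and of the upstream Zap70 start (chr1:36761548-36761797) are on the forward strand, and those of the farther (chr4:129573642-129573891) and nearer (chr4:129558373-129558622) Lck starts are on the reverse strand. The windows of Ptpn22 (chr3:103859545-103859794) and of the internal Stat4 start (chr1:52007990-52008239) are on the forward strand.
Cd247: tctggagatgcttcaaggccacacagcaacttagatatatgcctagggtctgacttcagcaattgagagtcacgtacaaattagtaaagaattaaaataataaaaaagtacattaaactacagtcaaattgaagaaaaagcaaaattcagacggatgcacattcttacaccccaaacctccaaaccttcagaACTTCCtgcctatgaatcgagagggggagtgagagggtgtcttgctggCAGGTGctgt
Zap70, upstream start: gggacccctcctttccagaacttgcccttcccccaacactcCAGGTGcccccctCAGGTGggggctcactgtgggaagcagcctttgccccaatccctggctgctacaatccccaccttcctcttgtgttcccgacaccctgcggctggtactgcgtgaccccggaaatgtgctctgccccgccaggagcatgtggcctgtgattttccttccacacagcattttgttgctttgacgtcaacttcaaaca
Lck, farther start: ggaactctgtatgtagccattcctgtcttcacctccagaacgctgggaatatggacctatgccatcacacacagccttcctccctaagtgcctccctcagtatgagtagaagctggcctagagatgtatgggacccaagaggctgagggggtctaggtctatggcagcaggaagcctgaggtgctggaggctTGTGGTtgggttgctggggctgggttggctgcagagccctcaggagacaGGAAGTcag
Lck, nearer start: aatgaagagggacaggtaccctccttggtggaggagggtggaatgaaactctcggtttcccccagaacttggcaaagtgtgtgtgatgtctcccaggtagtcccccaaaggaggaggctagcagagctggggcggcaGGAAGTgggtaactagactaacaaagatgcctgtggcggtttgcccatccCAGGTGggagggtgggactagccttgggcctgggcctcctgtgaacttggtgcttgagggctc
Ptpn22: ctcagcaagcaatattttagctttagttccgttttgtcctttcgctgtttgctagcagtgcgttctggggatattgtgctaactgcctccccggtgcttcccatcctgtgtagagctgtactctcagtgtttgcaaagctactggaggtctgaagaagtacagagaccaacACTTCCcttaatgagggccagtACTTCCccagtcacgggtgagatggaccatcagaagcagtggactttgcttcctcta
Stat4, internal start: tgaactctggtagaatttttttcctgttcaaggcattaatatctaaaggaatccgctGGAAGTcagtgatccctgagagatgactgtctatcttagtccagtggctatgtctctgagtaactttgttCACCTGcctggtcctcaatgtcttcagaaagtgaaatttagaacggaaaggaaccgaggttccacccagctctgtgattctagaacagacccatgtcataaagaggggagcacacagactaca

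Of the 13 windows, 4 held the RUNX letters, 6 held the ETS letters and 6 held the E-box letters. Over all 32817 windows of the table the shares were 14.04% for RUNX, 19.7% for ETS and 17.2% for the E-box. The farther Lck start had RUNX letters at -58 and ETS letters at -9, counted in bases from the start to the first letter, and the nearer one had ETS letters at -113 and E-box letters at -63. Cd247 had ETS letters at -58 and E-box letters at -10, the upstream Zap70 start had E-box letters at -209 and -196, and the internal Stat4 start had ETS letters at -193 and E-box letters at -123. Ptpn22 had ETS letters at -79 and -57, and its other window held the RUNX letters at 2 places. The windows of Prkcq and of the outer Stat4 start held none of the letters. A match is a description of the sequence and no more.

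All 9 genes were higher in cells with a CD4 name than in cells with no CD4, CD8 or NK name. In suffix 1 the 5 CD4 names together held 1112 cells with a median of 655.5 UMIs, and the other side held 11465 cells with a median of 1362 UMIs. A difference was called where both sides together had 50 or more UMIs and the interval of the ratio excluded a 2-fold ratio. By this rule 9 of 9 genes were called above in suffix 1, where 16.2% of 3465 genes were, and 9 of 9 in suffix 2, where 7.51% of 3034 genes were. The median log2 ratio of the 9 genes was 4.98 in suffix 1 and 4.62 in suffix 2, and over all genes tested it was 0.33 and 0.13. How the cell type names were assigned is unknown, and if these genes took part, the ratios describe the names and are no independent evidence for them. None was called below, where 11.4% of genes in suffix 1 and 8.4% in suffix 2 were.

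Cd247 and Prkcq had the 2 largest ratios in both suffixes. Cd247 stood at 6.67 in the CD4 names and at 0.111 in the other cells of suffix 1, a log2 ratio of 5.91 (5.70 to 6.12), and at 6.51 and 0.173 in suffix 2, a log2 ratio of 5.24. Prkcq stood at 4.42 and 0.0603 in suffix 1, a log2 ratio of 6.20, and at 2.42 and 0.0722 in suffix 2, a log2 ratio of 5.06. Lck had log2 ratios of 5.15 in suffix 1 and 4.62 in suffix 2, and Zap70 had 5.31 and 4.93. The smallest ratio belonged to Rasgrp1, at 4.17 in the CD4 names and 0.585 in the other cells of suffix 1, a log2 ratio of 2.83, and at 4.69 and 0.797 in suffix 2, a log2 ratio of 2.56. Without 1 cell type name that is not reported here, the Cd247 ratio in suffix 1 was 88.7-fold, against 60.0-fold with it, and the Zap70 ratio was 60.0-fold, against 39.6-fold with it.

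**Figure D1:**
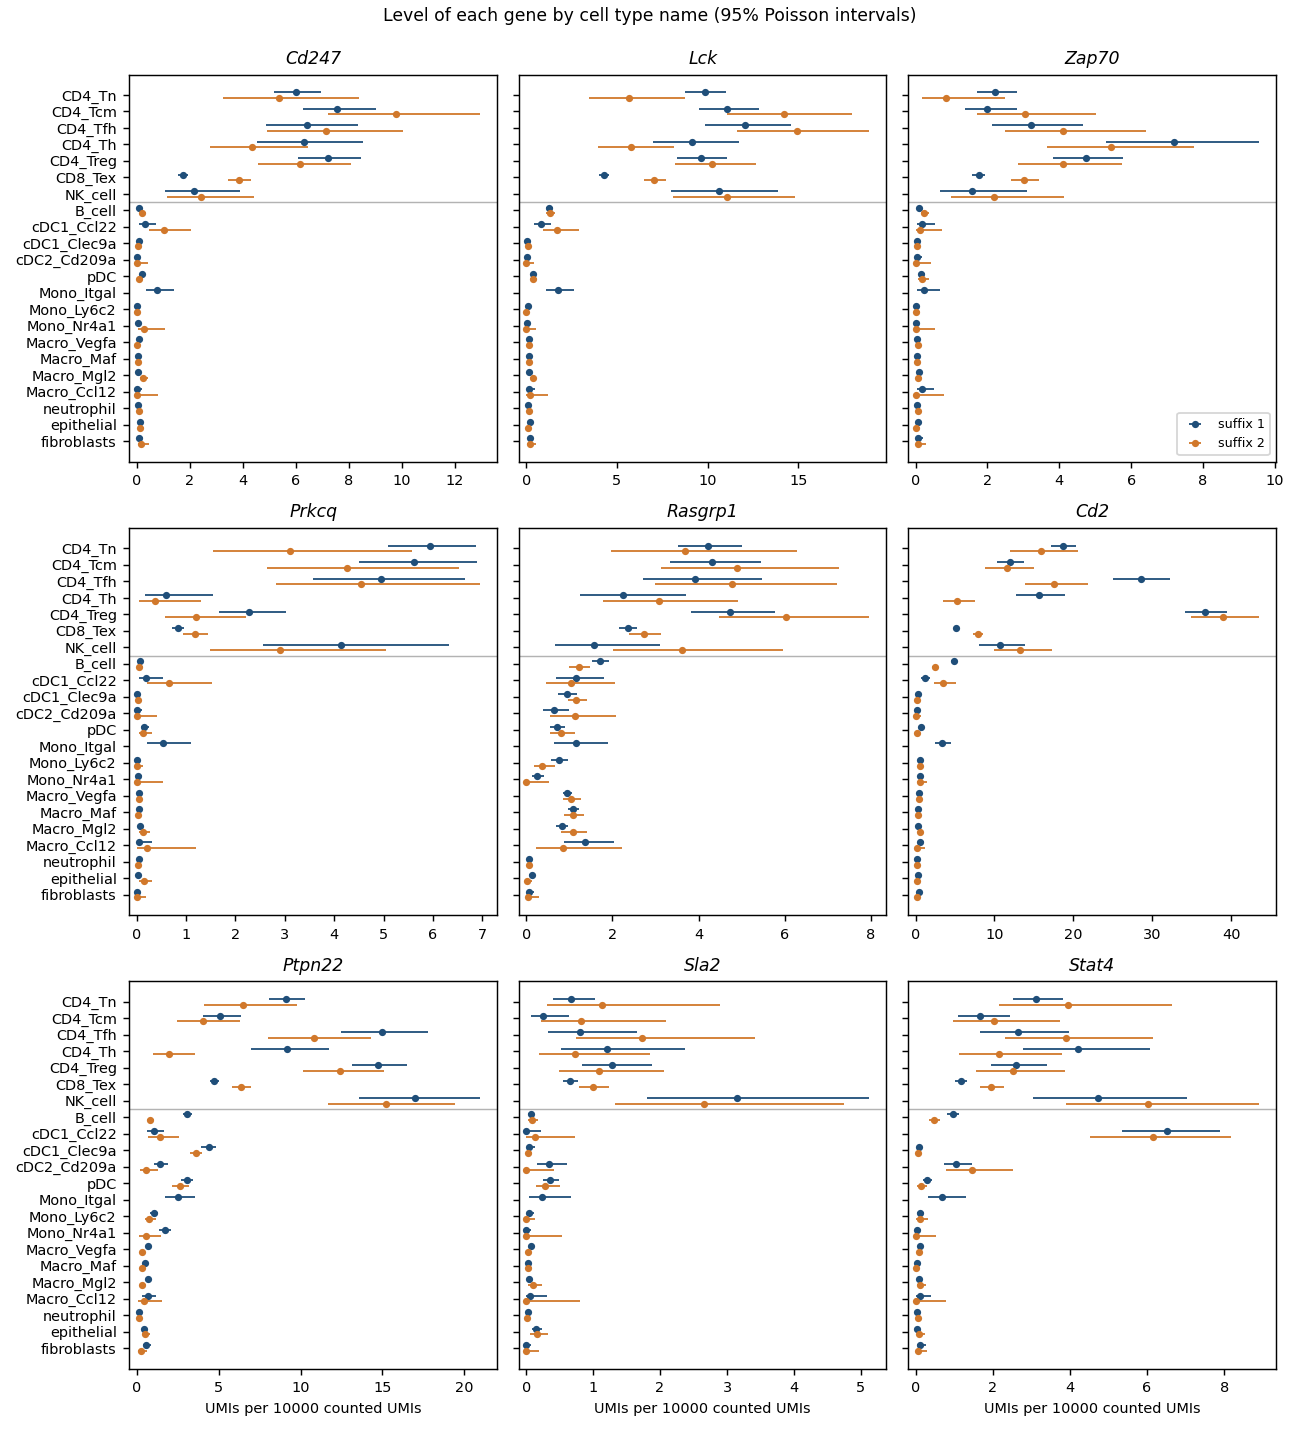
Level of each gene in UMIs per 10000 counted UMIs (horizontal axis) by cell type name (vertical axis), with 95% Poisson intervals, for suffix 1 (blue) and suffix 2 (orange, names of 20 or more cells). The names above the grey line are the CD4, CD8 and NK names; Stat4 reached 6.52 in cDC1_Ccl22 of suffix 1, and Cd2 reached 36.7 in CD4_Treg of suffix 1.

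Taking single names, 6 of the 9 genes were highest in a CD4 name in suffix 1 and 6 in suffix 2, 2 were highest in NK_cell and 1 in cDC1_Ccl22, and the leading name was the same in both suffixes for 8 of the 9. For 6 genes in suffix 1 and 5 in suffix 2, each of the 7 T and NK names lay above every other reported name, whatever its number of cells. Among names of 20 or more cells, Rasgrp1 met this in suffix 2 as well, with CD8_Tex lowest at 2.74 and B_cell next at 1.23. The exceptions in suffix 1 were Rasgrp1, Sla2 and Stat4.

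Cd247, the zeta chain, differed little among the CD4 names of suffix 1, where its level was 6.004 in CD4_Tn, 7.54 in CD4_Tcm, 6.44 in CD4_Tfh, 6.30 in CD4_Th and 7.20 in CD4_Treg, and the intervals overlapped from neighbour to neighbour. In suffix 2 it was 5.38, 9.76, 7.14, 4.34 and 6.16 in the same names. CD8_Tex stood lower at 1.75 in suffix 1 and 3.85 in suffix 2, and NK_cell at 2.17 and 2.41. Outside these names the highest values in suffix 1 were 0.766 in Mono_Itgal and 0.305 in cDC1_Ccl22. Mono_Itgal, a monocyte name of 41 cells, also carried T cell markers at 7.51 and B cell markers at 6.90, and their part in its levels was not tested.

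Lck, the first kinase of the pathway, was found in all CD4 names and in NK_cell. In suffix 1 it stood at 9.85 in CD4_Tn, 11.1 in CD4_Tcm, 12.1 in CD4_Tfh, 9.15 in CD4_Th, 9.61 in CD4_Treg and 10.6 in NK_cell, each overlapping its neighbours in the order. In suffix 2 these names were further apart, and CD4_Tfh at 14.9 (11.6 to 18.9) overlapped neither CD4_Th at 5.79 (3.96 to 8.17) nor CD4_Tn at 5.66 (3.46 to 8.74), with NK_cell at 11.1. CD8_Tex had 4.29 in suffix 1, below all of these names, and 7.07 in suffix 2, where it overlapped CD4_Th and CD4_Tn. Among other names, Mono_Itgal had 1.76 and B_cell had 1.28 in suffix 1.

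Zap70, the kinase that docks on the zeta chain, was highest in CD4_Th in both suffixes, at 7.20 in suffix 1 and 5.42 in suffix 2. CD4_Treg followed in suffix 1 at 4.73, with an interval that overlapped that of CD4_Th, and stood at 4.10 in suffix 2. CD4_Tn had 2.22 and 0.849, CD4_Tcm had 1.99 and 3.05, and CD4_Tfh had 3.22 and 4.11 in suffix 1 and suffix 2. NK_cell, at 1.58 and 2.17, and CD8_Tex, at 1.75 and 3.02, overlapped CD4_Tcm.

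Prkcq, the kinase towards NF-kB, split the CD4 names. It stood at 5.94 in CD4_Tn, 5.61 in CD4_Tcm and 4.94 in CD4_Tfh of suffix 1, with NK_cell at 4.14 overlapping these. CD4_Treg had 2.27, CD8_Tex had 0.837 and CD4_Th had 0.6002, which rests on 4 UMIs. In suffix 2 the higher values were 3.11 in CD4_Tn, 4.27 in CD4_Tcm and 4.55 in CD4_Tfh. The lower ones were 1.21 in CD4_Treg, 1.17 in CD8_Tex and 0.362 in CD4_Th. These rest on few UMIs, with 11 in CD4_Tn, 10 in CD4_Treg and 2 in CD4_Th. The intervals of CD4_Tn (1.55 to 5.57) and CD4_Treg (0.579 to 2.22) overlapped.

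Rasgrp1, the Ras exchange factor, had the least difference between T cells and other cells. It was 4.73 in CD4_Treg, 4.30 in CD4_Tcm, 4.21 in CD4_Tn, 3.91 in CD4_Tfh and 2.25 in CD4_Th of suffix 1, and 2.36 in CD8_Tex. B_cell had 1.72, and the 4 reported macrophage names had 0.826 to 1.37, while neutrophils had 0.0602 and epithelial cells had 0.131. In suffix 2 CD4_Treg had 6.04, the macrophage names 0.866 to 1.09 and neutrophils 0.0617. Rasgrp1 made up 49.0% of the 661 UMIs of the 9 genes in Macro_Maf, against 6.4% of the 5345 UMIs in the CD4 names of suffix 1, and 54.2% against 7.9% in suffix 2.

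Cd2, the adhesion receptor for CD48 in the mouse, was highest in CD4_Treg, at 36.7 (34.1 to 39.4) in suffix 1 and 39.0 (34.9 to 43.5) in suffix 2. In suffix 1 CD4_Tfh followed at 28.5, CD4_Tn at 18.7, CD4_Th at 15.6 and CD4_Tcm at 11.97. The intervals of CD4_Treg and CD4_Tfh did not overlap their next neighbour in suffix 1, and that of CD4_Treg did not in suffix 2, where CD4_Tfh had 17.5. CD4_Th differed between the suffixes, with 15.6 (12.7 to 18.9) in suffix 1 and 5.24 (3.51 to 7.53) in suffix 2. B_cell had 4.87 in suffix 1 and 2.45 in suffix 2, and Mono_Itgal had 3.37 in suffix 1.

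Ptpn22, the phosphatase that acts on Lck and Zap70, was highest in NK_cell, at 17.0 in suffix 1 and 15.2 in suffix 2. CD4_Tfh at 14.9 and CD4_Treg at 14.7 overlapped NK_cell in suffix 1, and stood at 10.8 and 12.4 in suffix 2. CD4_Tcm was the lowest CD4 name in suffix 1 at 5.11, and CD4_Th the lowest in suffix 2 at 1.99, against 9.15 in suffix 1. Ptpn22 also had levels in dendritic names, with 4.38 in cDC1_Clec9a, 3.04 in pDC, 1.42 in cDC2_Cd209a and 1.04 in cDC1_Ccl22 of suffix 1. Other names lay in that range too, among them B_cell at 3.10, Mono_Itgal at 2.53 and Mono_Nr4a1 at 1.71. Sla2, the adaptor that promotes receptor removal, was sparse, with 16 UMIs in NK_cell of suffix 1 at a level of 3.16 and 0.249 to 1.28 in the CD4 names.

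Stat4, the interleukin-12 transcription factor, was highest outside the T cells. In cDC1_Ccl22 it stood at 6.52 (5.34 to 7.88) in suffix 1 and 6.15 (4.52 to 8.17) in suffix 2, overlapping NK_cell at 4.73 and 6.03. CD4 names lay between 1.68 in CD4_Tcm and 4.201 in CD4_Th of suffix 1, and between 2.03 in CD4_Tcm and 3.96 in CD4_Tn of suffix 2. The other dendritic names were lower in suffix 1, with 1.05 in cDC2_Cd209a, 0.291 in pDC and 0.0855 in cDC1_Clec9a.

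**Figure D2:**
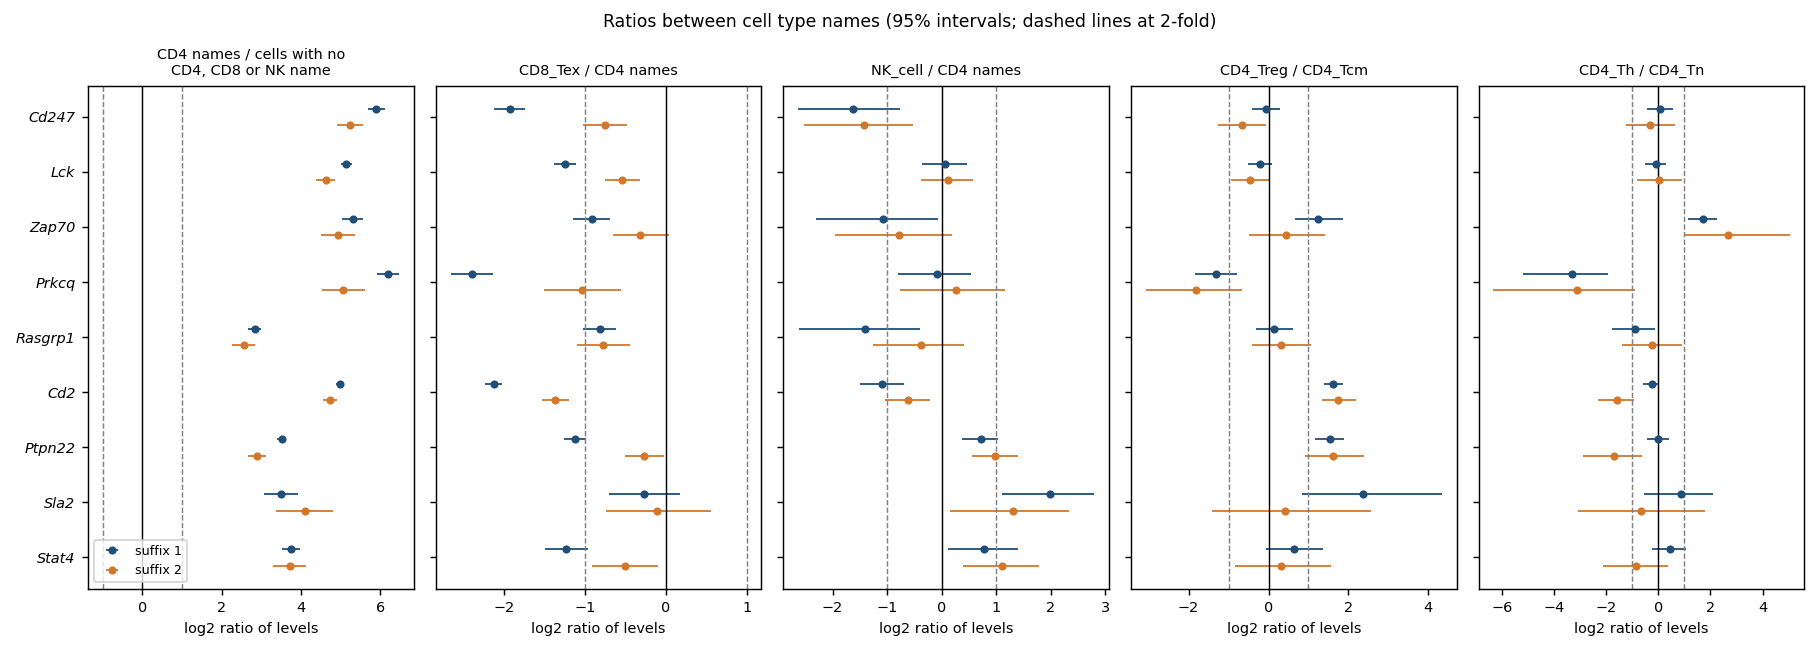
Log2 ratio of levels (horizontal axis) for each gene (vertical axis) in 5 pairs of names, with 95% intervals, for suffix 1 (blue) and suffix 2 (orange); each panel title gives the first name over the second. The dashed lines mark a 2-fold ratio; all points of the left panel lie above it, and Cd2 lies beyond it in both suffixes for CD8_Tex (below) and for CD4_Treg over CD4_Tcm (above).

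Regulatory T cells carried more Cd2 and Ptpn22 than central memory cells. For CD4_Treg against CD4_Tcm, 2 of the 8 genes tested were called above in suffix 1, where 9.18% of 1079 genes were. Cd2 stood at 36.7 against 11.97, a log2 ratio of 1.62 (1.39 to 1.85), and Ptpn22 at 14.7 against 5.11, a log2 ratio of 1.53 (1.17 to 1.90). In suffix 2 Cd2 was called, with a log2 ratio of 1.75, where 12.6% of 460 genes were called above, and Ptpn22, at a log2 ratio of 1.61 (0.91 to 2.38), was not. No gene was called below, where 3.34% of all genes were in suffix 1, and Prkcq had a log2 ratio of -1.31 (-1.85 to -0.78).

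Against naive cells no gene passed the rule. For CD4_Treg against CD4_Tn, 0 of 8 genes were called in either direction in suffix 1, where 8.73% of genes were called above and 2.61% below. Zap70 had a log2 ratio of 1.09 (0.62 to 1.56), Cd2 of 0.98 (0.82 to 1.14) and Prkcq of -1.39 (-1.89 to -0.91). In suffix 2, where 5 genes were tested and 0 were called (10.8% of genes were called above and 3.19% below), Cd2 had 1.30 (0.89 to 1.74). Cells named CD4_Treg held more UMIs, with a median of 812 against 623 in CD4_Tn of suffix 1, and by UMIs per cell Zap70 and Cd2 were called above, where 17.6% of 1226 genes were.

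Helper cells carried more Zap70 and less Prkcq than naive cells in suffix 1. For CD4_Th against CD4_Tn, Zap70 stood at 7.20 against 2.22, a log2 ratio of 1.70 (1.13 to 2.25), and Prkcq at 0.6002 against 5.94, a log2 ratio of -3.31 (-5.20 to -1.92). Thus 1 of 8 genes was called above, where 7.17% of 962 genes were, and 1 below, where 3.01% were. In suffix 2 none of the 2 genes with enough UMIs was called, where 10.5% of 276 genes were called above and 1.81% below. With 33 and 13 UMIs in all, Zap70 and Prkcq fell under the minimum there, and their log2 ratios were 2.68 and -3.11. CD4_Th in suffix 1 rests on 56 cells, of which 18 had no C1q UMI, and in those Prkcq had a log2 ratio of -2.58 and was not called, where 2.73% of 512 genes were called below, and Zap70 had too few UMIs. Markers of group 2 innate lymphoid cells, 2 of 5 measured, stood at 31.8 in CD4_Th against 3.81 in CD4_Tn of suffix 1, and regulatory T cell markers, 5 of 6 measured, at 77.6 against 6.10. Their part in the result was not tested.

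Follicular helper cells differed from naive cells by less than the 2-fold rule asks. For CD4_Tfh against CD4_Tn, 0 of 8 genes were called in suffix 1, where 3.14% of genes were called above and 0.608% below. The largest log2 ratios were 0.71 (0.40 to 1.02) for Ptpn22 and 0.61 (0.39 to 0.83) for Cd2. In suffix 2, 0 of 4 genes were called, where 3.6% of genes were called above and 0.8% below, and Lck had 1.40 (0.67 to 2.20).

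Per counted UMI, 4 of the 9 genes were called lower in CD8_Tex than in the CD4 names in suffix 1. Of these, 1, Cd2, was also called lower in suffix 2. The genes not called also stood lower in CD8_Tex in both suffixes, by less than the rule asks. Per 10000 UMIs, Cd247 (1.75 against 6.67), Lck (4.29 against 10.2), Prkcq (0.837 against 4.42) and Cd2 (5.16 against 22.6) were called below in suffix 1, where 5.08% of 2598 genes were. None was called above, where 12.8% were. In suffix 2 only Cd2 was called below, at 7.87 against 20.3, where 1.96% of 1943 genes were, and the other log2 ratios lay between -1.04 for Prkcq and -0.11 for Sla2. None was called above in suffix 2, where 6.85% were. In UMIs per cell the log2 ratios of the 9 genes lay between 0.08 for Prkcq and 2.20 for Sla2, with 5 of 9 called above in suffix 1, such as Zap70 at 0.719 against 0.244 and Rasgrp1 at 0.968 against 0.307. By that measure 91.4% of 2598 genes were called above, so the members' share lay below that of all genes tested.

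These cells also carried transcripts of myeloid cells. The summed level of the 5 measured macrophage markers of a list of 8, among them C1qa, C1qb and C1qc of complement, was 213 in CD8_Tex of suffix 1, against 9.61 to 12.2 in the CD4 names, and 103 against 7.36 to 10.8 in suffix 2. Neutrophil markers, 6 of 8 measured, stood at 325 in CD8_Tex against 50.9 to 84.7 in the CD4 names of suffix 1, and at 163 against 25.3 to 30.7 in suffix 2. Monocyte markers, 3 of 5 measured, stood at 42.9 against 1.35 to 2.56 in suffix 1 and at 23.9 against 1.83 to 2.81 in suffix 2. The median of counted UMIs was 3292 in CD8_Tex and 655.5 in the CD4 names of suffix 1, and 1930 and 913 in suffix 2. Macro_Maf, a macrophage name, had a marker level of 449.6 in suffix 1. No doublets were called here, and the part of these transcripts in the result was not tested beyond the following split.

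Within CD8_Tex, the level of the 9 genes per counted UMI was lowest in the cells richest in C1q transcripts. In suffix 1 their summed level was 52.5 (49.3 to 55.8) in 106 cells with 0 C1q UMIs, 45.9 (43.8 to 48.1) in 168 cells with 1 to 4, and 13.6 (13.0 to 14.2) in 253 cells with 5 or more. The median of counted UMIs in these cells was 1169.5, 1616.5 and 5447. Per cell the sums were 9.36, 10.5 and 8.53 UMIs of the 9 genes. In suffix 2 the levels were 49.6, 49.0 and 17.6 in 91, 124 and 52 cells, and the sums per cell were 9.48, 10.4 and 11.98. Cells with 5 or more C1q UMIs thus held nearly as many or more UMIs of these genes per cell, spread over a larger total.

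In cells with 0 C1q UMIs on both sides, Prkcq at 1.38 against 4.75 and Cd2 at 10.4 against 24.9 were called below in CD8_Tex of suffix 1, which is 2 of 9 genes, where 3.1% of 1386 genes were. Lck had a log2 ratio of 0.02 (-0.24 to 0.27) and Cd247 of -0.66 (-1.06 to -0.27) in these cells. Zap70, at 4.60 against 2.91, and Stat4, at 3.54 against 2.13, had log2 ratios of 0.66 and 0.73 and were not called. Such ratios were not taken in suffix 2. In its cells with 0 C1q UMIs, Cd2 stood at 10.5 in CD8_Tex against 21.3 in the CD4 names. Prkcq there had 1.38 against 2.09, with intervals that overlapped. Zap70 had 3.62 against 3.86, so its direction was not that of suffix 1, and Stat4 had 2.99 against 2.49.

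**Figure D3:**
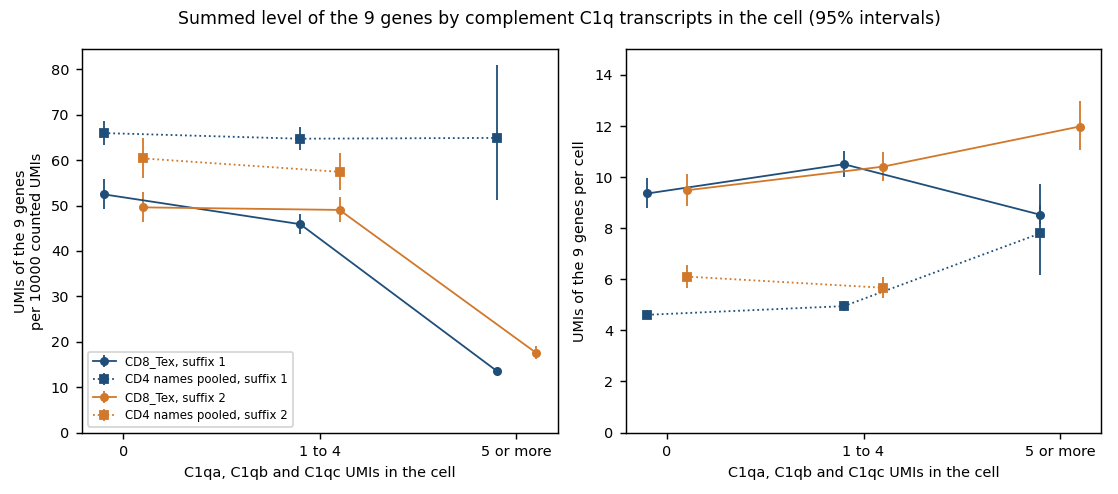
Summed UMIs of the 9 genes per 10000 counted UMIs (left) and per cell (right) in cells with 0, 1 to 4 and 5 or more UMIs of C1qa, C1qb and C1qc, with 95% intervals, for CD8_Tex (circles) and the pooled CD4 names (squares) of suffix 1 (blue) and suffix 2 (orange), where 10 or more cells were present. The level of CD8_Tex in suffix 1 was 52.5, 45.9 and 13.6 along the axis, and its UMIs per cell were 9.36, 10.5 and 8.53.

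Natural killer cells carried more Sla2 than the CD4 names in suffix 1. Sla2 stood at 3.16 against 0.794, a log2 ratio of 1.99 (1.10 to 2.80), and was the 1 of 9 genes called above, where 1.62% of 1664 genes were. In cells with 0 C1q UMIs it stood at 4.83 against 0.805, a log2 ratio of 2.58 (1.39 to 3.65), with 41 UMIs in all, which is under the minimum of 50. In suffix 2 it stood at 2.65 against 1.08, with 40 UMIs in all, and 0 of 8 genes were called, where 1.61% of 931 genes were called above and 2.04% below. Ptpn22 had log2 ratios of 0.71 and 0.98 and Stat4 of 0.78 and 1.11 in suffix 1 and suffix 2, and neither was called. No gene was called below in suffix 1, where 1.56% were, and Cd247 had log2 ratios of -1.62 (-2.63 to -0.77) and -1.43 (-2.52 to -0.52). Lck had log2 ratios of 0.06 (-0.36 to 0.46) and 0.11 (-0.37 to 0.57). Only 58 and 53 cells carried the name NK_cell.

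Cd2 and Lck were higher in B cells than in the cells outside the T and NK names in both suffixes. Against cells with no CD4, CD8, NK or B name, 5 of 9 genes were called above in B_cell of suffix 1, where 20.9% of 3441 genes were, and 0 below, where 14.6% were. These were Cd2 at 4.87 against 0.439, Lck at 1.28 against 0.222, Stat4 at 0.967 against 0.153, Rasgrp1 at 1.72 against 0.510 and Ptpn22 at 3.10 against 0.760. In suffix 2 Cd2 and Lck were called, which is 2 of 8 genes, where 9.88% of 3007 genes were called above, and none was called below, where 13.6% were. Ptpn22 turned round in suffix 2, at 0.840 against 1.07, a log2 ratio of -0.35 (-0.72 to 0.01). Cd247, Zap70 and Prkcq stood at 0.103, 0.103 and 0.0604 in B_cell of suffix 1, and at 0.213, 0.248 and 0.0473 in suffix 2. T cell markers stood at 1.34 and 2.14 in B_cell of suffix 1 and suffix 2, against 0.29 and 0.36 in neutrophils. Their part in the B_cell levels was not tested.

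Stat4 was higher in cDC1_Ccl22, and Ptpn22 in cDC1_Clec9a and pDC, than in the cells they were set against. The dendritic markers, 2 of 9 measured, stood at 11.7 in cDC1_Ccl22, 1.17 in cDC1_Clec9a and 0.81 in pDC of suffix 1, against 0.627 in Macro_Maf. In suffix 2 they stood at 7.98, 0.479 and 0.335 in the same names, against 0.618 in Macro_Maf, so the names cDC1_Clec9a and pDC did not stand above Macro_Maf by these markers there. In pDC of suffix 1, macrophage markers stood at 46.6 and neutrophil markers at 786, and their part in its levels was not tested. In cDC1_Ccl22, a name for activated dendritic cells, Stat4 was 59.0-fold the level of cells with none of the CD4, CD8, NK, B or that name in suffix 1 (6.52 against 0.110) and 56.7-fold in suffix 2 (6.15 against 0.108). It was the 1 of 9 genes called above in suffix 1, where 9.81% of genes were, and none was called below, where 3.31% were. With 1 unreported name left out, Lck and Cd2 were called too, which is 3 of 9 genes, where 10.2% of 3370 genes were. In suffix 2, 5 of 8 genes were called above, where 7.76% of genes were, among them Cd2 at 3.53 against 0.514 in 39 cells. T cell markers stood at 2.56 and 5.75 in cDC1_Ccl22 of suffix 1 and suffix 2, against 0.29 and 0.36 in neutrophils, and their part in these calls was not tested. Stat4 made up 57.5% of the 186 UMIs of the 9 genes in cDC1_Ccl22 of suffix 1 and 38.8% of 121 in suffix 2.

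Ptpn22 was higher in cDC1_Clec9a and in pDC than in cells with none of the CD4, CD8, NK, B or that name, and cDC2_Cd209a was not compared. In cDC1_Clec9a of suffix 1 it stood at 4.38 against 0.637, a log2 ratio of 2.78 (2.61 to 2.95). In cDC1_Clec9a of suffix 2 it stood at 3.60 against 0.638, a log2 ratio of 2.50. It was the 1 of 9 genes called above in suffix 1, where 12.5% of genes were, and the 1 of 8 in suffix 2, where 8.68% were. None was called below in suffix 1, where 9.43% were, and Cd247 and Cd2 were in suffix 2, where 17.4% were. In pDC, Ptpn22 at 3.04 against 0.668 and Sla2 at 0.353 against 0.0590 were called above in suffix 1, which is 2 of 9 genes, where 10.1% of genes were. In suffix 2 Ptpn22 alone was called of 8 genes, at 2.65 against 0.969, where 3.1% of genes were, and Sla2, at 0.283 against 0.0465, had too few UMIs.

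**Figure D4:**
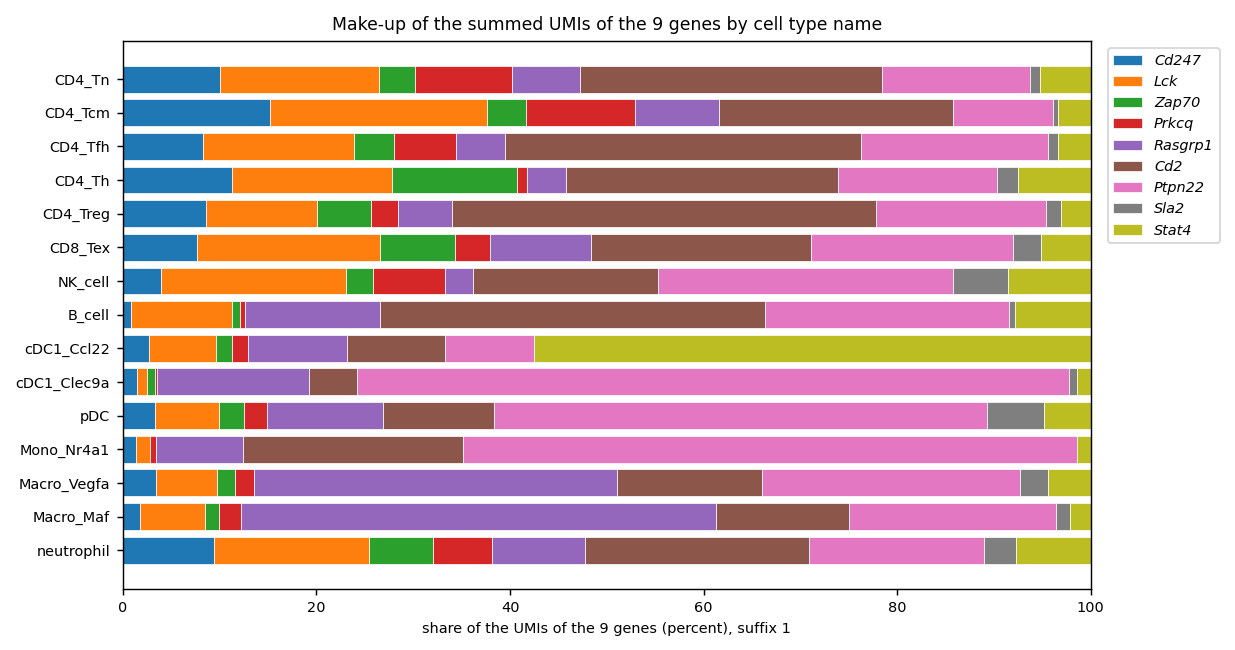
Share of each gene (percent, horizontal axis) in the summed UMIs of the 9 genes, by cell type name (vertical axis), suffix 1. Stat4 took 57.5% in cDC1_Ccl22, Ptpn22 took 73.6% in cDC1_Clec9a, Rasgrp1 took 49.0% in Macro_Maf and Cd2 took 43.8% in CD4_Treg; shares depend on gene length and capture, so they compare names and not genes.

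The make-up of the summed UMIs set these names apart. Ptpn22 took 73.6% of 488 UMIs in cDC1_Clec9a, 63.4% of 145 in Mono_Nr4a1 and 50.9% of 576 in pDC of suffix 1, against 15.8% in the pooled CD4 names. In suffix 2 it took 69.1% in cDC1_Clec9a and 54.8% in pDC, against 12.9% in the pooled CD4 names. Neutrophils had a summed level of 0.627 in suffix 1, and their 677 UMIs were 23.2% Cd2, 16.0% Lck, 18.0% Ptpn22 and 9.5% Cd247. The same shares were 22.7%, 18.9%, 20.9% and 7.7% in CD8_Tex and 34.6%, 15.6%, 15.8% and 10.2% in the pooled CD4 names.

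Shares of cells with a UMI were compared at equal depth. Each cell was thinned to 500 counted UMIs, which left out 35 of 220 cells in CD4_Treg, 76 of 258 in CD4_Tcm, 29 of 527 in CD8_Tex, 673 of 1785 in B_cell, 13 of 737 in Macro_Maf and 586 of 5712 in neutrophils of suffix 1. It also left out 91 of 462 cells in CD4_Tn, 16 of 58 in NK_cell, 8 of 88 in cDC1_Ccl22 and 15 of 165 in cDC1_Clec9a. Cd2 was then seen in 77.3% (70.6 to 83.1) of CD4_Treg cells, 40.1% (32.9 to 47.6) of CD4_Tcm cells, 27.7% (23.8 to 31.9) of CD8_Tex cells and 22.8% (20.4 to 25.4) of B_cell cells, against 1.80% of Macro_Maf cells and 0.663% of neutrophils. Unthinned, at medians of 812, 590, 3292 and 558 UMIs, the shares of these first 4 names were 91.8%, 49.6%, 68.5% and 30.1%, against 8.96% of Macro_Maf cells at a median of 3652 and 1.51% of neutrophils at a median of 1120.

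In suffix 1 Lck was seen in 36.8% of CD4_Treg, 40.7% of CD4_Tcm, 42.9% of NK_cell and 25.7% of CD8_Tex cells after thinning, against 1.10% of Macro_Maf cells and 0.254% of neutrophils. The unthinned share in CD8_Tex of suffix 1, 66.8%, was above that of every CD4 name, and the thinned one was below that of each, though its interval overlapped that of CD4_Th. In suffix 2 the thinned share in CD8_Tex, 37.6%, was above 15.1% in CD4_Th, 29.7% in CD4_Tn and 35.1% in CD4_Treg, and below 51.02% in CD4_Tcm and 59.5% in CD4_Tfh. Rasgrp1 was seen in 16.8% of CD4_Treg and 18.6% of CD4_Tn cells, against 6.08% of Macro_Maf cells and 0.234% of neutrophils. Stat4 was seen in 22.5% (13.9 to 33.2) of cDC1_Ccl22 cells and Ptpn22 in 15.3% (9.98 to 22.1) of cDC1_Clec9a cells. Neutrophil shares of Stat4 and Ptpn22 were 0.215% and 0.566%. Unthinned, Stat4 was seen in 51.1% of cDC1_Ccl22 cells at a median of 1692 UMIs and Ptpn22 in 69.7% of cDC1_Clec9a cells at a median of 4857 UMIs, against 0.788% and 1.37% of neutrophils. Unthinned, Rasgrp1 was seen in 30.3% of Macro_Maf cells and 0.945% of neutrophils.

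**Figure D5:**
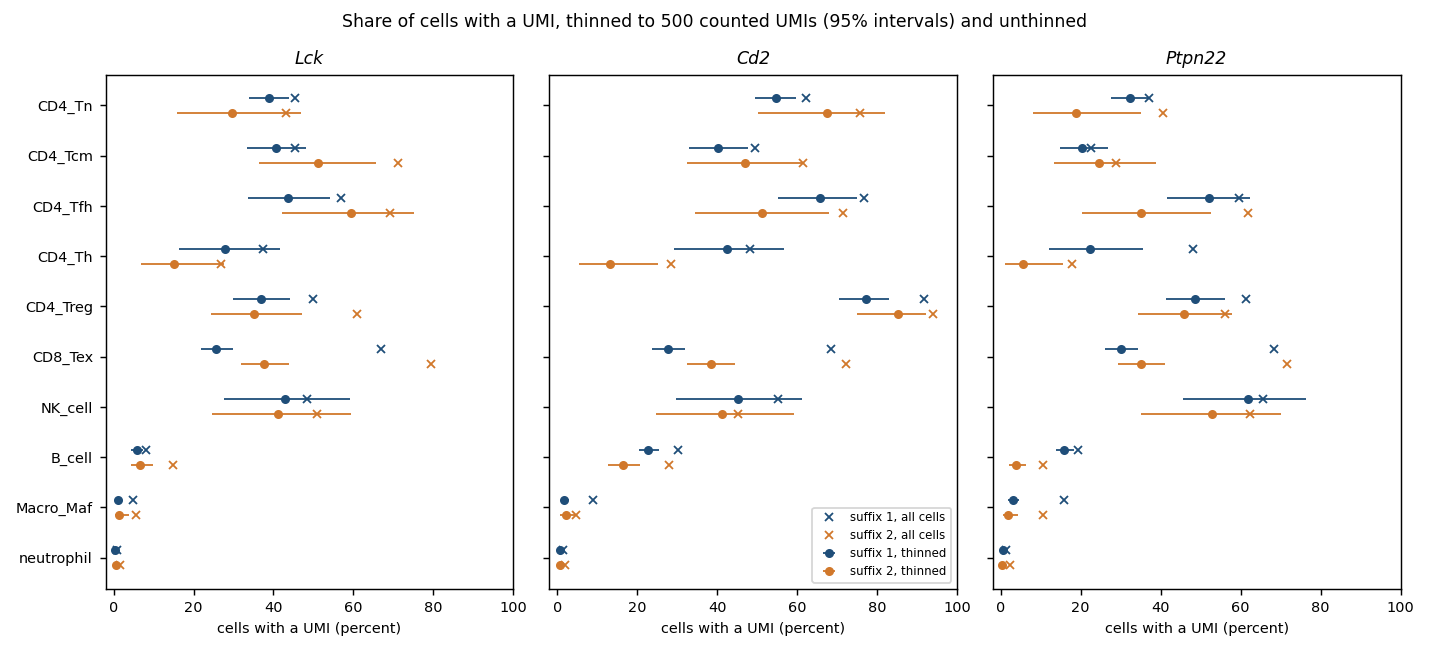
Share of cells with a UMI of Lck, Cd2 and Ptpn22 (percent, horizontal axis) by name (vertical axis), thinned to 500 counted UMIs (circles with 95% Clopper-Pearson intervals) and unthinned (crosses), for suffix 1 (blue) and suffix 2 (orange). The thinned share of Cd2 in suffix 1 was 77.3% in CD4_Treg and 0.663% in neutrophils, and the crosses of CD8_Tex lie far to the right of its circles.

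Counted per thinned cell, CD4_Tfh had on average 2.59 of the 9 genes and CD4_Treg 2.57 in suffix 1, and NK_cell had 2.31, CD4_Tn 2.20, CD4_Tcm 1.98 and CD4_Th 1.87. CD8_Tex had 1.44, B_cell 0.602 and Mono_Itgal 0.6, against 0.133 in Macro_Maf and 0.0269 in neutrophils. At least 1 of the genes was seen in 97.9% of CD4_Tfh and 71.1% of CD8_Tex cells, against 2.44% of neutrophils. In suffix 2 the means were 2.59 in CD4_Tfh, 2.57 in CD4_Treg, 1.92 in CD8_Tex and 0.981 in CD4_Th, the last from 53 cells.

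Other genes of the pathway were counted from lists chosen with earlier results of these data known, in the same comparison of the CD4 names with cells that have no CD4, CD8 or NK name. In that comparison 16.2% of all genes tested in suffix 1 and 7.51% in suffix 2 were called above, and 11.4% and 8.4% below, and the counts that follow stand beside those shares. Of 26 proximal kinases, adaptors and effectors, 9 were measured and 5 were called above in suffix 1, led by Sh2d2a, an adaptor that binds Lck, at a log2 ratio of 5.04, and Plcg1, the phospholipase that makes second messengers, at 3.73. Themis2, a relative of the T cell protein Themis known from B cells and macrophages, was the 1 called below, at 0.0733 against 1.96. In suffix 2, 4 of the 9 were called above and 1 below. Of 20 second messenger and nuclear effectors 6 were measured and 2, Nfatc2 and Nfkb1, were called above in both suffixes.

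Of 22 phosphatases and inhibitors, 9 were measured and 5 were called above in each suffix, beside 16.2% of all genes in suffix 1 and 7.51% in suffix 2. They were Ctla4 (log2 ratio 5.74 in suffix 1), Sit1 (5.06), Pdcd1 (4.49), Lax1 (2.72) and Ptprc, which encodes CD45 (1.42). Of 15 costimulatory and adhesion partners, 11 were measured and 7 were called above in suffix 1, led by Cd28 at 5.81 and Icos at 5.59, and 8 in suffix 2. Cd48, which encodes the ligand of Cd2 in the mouse, was among them at 4.17 against 1.54, a log2 ratio of 1.44. Cd244a, another receptor of that ligand, was called below in suffix 1, at 0.0489 against 0.621. Of 13 genes of the interleukin-12 axis 5 were measured. In suffix 1, 3 were called above, among them Il18r1 (4.24), a chain of the interleukin-18 receptor, and Jak1 (1.62), a cytokine receptor kinase. Il12a, a subunit of interleukin-12, was the 1 called below, with a log2 ratio of -2.92 (0.0367 against 0.278). In suffix 2 Il18r1 (4.55) and Jak1 (1.35) were the 2 called above, and 0 were called below. None of the 9 antigen receptor and coreceptor genes of the list was measured.

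Across names of 20 or more cells, which were 22 in suffix 1 and 21 in suffix 2, the pattern of the summed 9 genes was most like that of Sh2d2a, with Pearson's r of log2(level + 0.1) of 0.95 in suffix 1 and 0.93 in suffix 2, and of Tox, with 0.95 and 0.94. Kctd18 followed with 0.94 in suffix 1 but 0.41 in suffix 2, then Slc35e2 with 0.94 and 0.86 and Gm43065 with 0.92 and 0.88. These values describe names that share a suffix and are not independent. Tox was the gene most like Cd247 (0.97), Lck (0.98), Zap70 (0.96) and Cd2 (0.97), and Lef1 the one most like Prkcq (0.94). Rngtt was most like Rasgrp1 (0.90). Gm43065 was most like Sla2 (0.87) and Ptpn22 (0.93), but Gm43065 and Gm15472 lie within introns of Ptpn22 on its strand, so reads may be split between them.

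Among the 9 genes themselves, the 36 pairs ranged from 0.61 for Rasgrp1 and Sla2 to 0.97 for Lck and Cd2 in suffix 1. Cd247 paired with Lck at 0.96 in suffix 1 and 0.94 in suffix 2, and with Zap70 at 0.96 and 0.93.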

How the data were processed

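Raw UMI counts per gene and cell, and a cell type name per barcode, were used as the authors deposited them. Per the submitters' processing notes, Cell Ranger and Seurat were used with build GRCm38, also written mm10. Tool versions, filters on cells and use of strand: not given in the sources used here. Complete rows numbered 4099, from genes of chromosomes 1 to 5, and 1 incomplete row was left out. No cells with counts were removed and no doublets were called, and named barcodes without counts could not be used. Of 23 cell type names, 22 are reported, and 1 name and some single genes are not reported here.

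UMIs were summed per name and suffix with Python 3.11.15, numpy 2.4.6, scipy 1.17.1 and pandas 2.3.3, and figures were drawn with matplotlib 3.10.9. Suffix 1 held 29567302 UMIs and suffix 2 held 8578852 UMIs. Levels carry exact Poisson intervals, shares carry Clopper-Pearson intervals and ratios carry exact conditional binomial intervals, all at 95% and for counting error only. With no replicates and no map from suffixes to samples, no test was run and no p-value is given. A ratio was called where 50 or more UMIs were present over both sides and its interval excluded 2-fold, and background shares are over all genes with that many UMIs. Shares of cells were also taken after thinning each cell to 500 UMIs. Likeness was Pearson's r of log2(level + 0.1), with a pseudocount of 0.1, over genes of 200 or more UMIs. Calculations were tested on simulated data.

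The 9 genes and all lists were chosen with earlier results of these data known. Genes named beside them were the 5 most like each, of which the leading ones are printed, and from each pathway list the called genes of largest ratio. The alternatives were suffix 2, UMIs per cell, a total without S100a8 and S100a9, cells with 0 C1q UMIs, a minimum of 20 UMIs, a cut of 2 C1q UMIs and a pseudocount of 1. The dendritic comparisons and the fits without 1 unreported name were added after seeing the data.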

Additional observations from a re-analysis of the deposited data

How the results depend on the processing

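All 9 genes stayed above 2-fold in the CD4 names against cells with no CD4, CD8 or NK name under suffix 2, UMIs per cell, 0 C1q UMIs, a minimum of 20 UMIs, a total without S100a8 and S100a9, and without 1 unreported name. Under suffix 2, the counts of genes called were 1 below for CD8_Tex against the CD4 names, 0 above for NK_cell, 1 above for CD4_Treg against CD4_Tcm, 0 above and 0 below for CD4_Th against CD4_Tn, 2 above for B_cell, 5 above for cDC1_Ccl22, 2 below for cDC1_Clec9a and 1 above for pDC, and Ptpn22 in B_cell reversed to a log2 ratio of -0.35. Under UMIs per cell, CD8_Tex had 5 above (91.4% of all genes tested) and 0 below (0.0385%), CD4_Treg against CD4_Tn had 2 above (17.6%), B_cell had 1 above (2.85%), cDC1_Clec9a had 2 above (40.5%) and pDC had 9 above (58.3%). There the log2 ratios of CD8_Tex changed sign, to 0.55 for Cd247, 1.23 for Lck, 1.56 for Zap70, 0.0773 for Prkcq, 1.66 for Rasgrp1, 0.35 for Cd2, 1.36 for Ptpn22 and 2.20 for Sla2. Stat4, called in neither, had -1.23 per 10000 UMIs and 1.25 per cell. Cells of deeper names give more UMIs of any gene. Among cells of suffix 1 with 0 C1q UMIs, CD8_Tex had 2 below (3.1% of all genes tested), and Lck, at a log2 ratio of 0.0187, was not called. In these cells NK_cell had 0 above (1.36%), CD4_Th had 0 above (5.47%) and 0 below (2.73%), with fewer cells on each side, and cDC1_Ccl22 had 3 above (13.8%). Without 1 unreported name, cDC1_Ccl22 had 3 above (10.2%), and without S100a8 and S100a9, cDC1_Clec9a had 1 below (14.5%). Where no construction is named, the cause was not tested. The minimum of 20 UMIs left all 22 counts of called genes as they were, and a pseudocount of 1 left all 50 correlations within 0.1. Levels in suffix 2 lay outside the counting interval of suffix 1 in 51 of 92 values. Sla2 and names of under 60 cells are limited by few UMIs. No paired analysis was possible because no header or label ties a barcode suffix to a sample, and no replicate could be left out.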
